A study of Mus musculus with 6 samples.

Results

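The genes described here encode the enzymes that conjugate foreign and endogenous compounds to glutathione, glucuronic acid or sulfate. They are the glutathione S-transferases (GST), the microsomal glutathione S-transferases (MGST), the UDP-glucuronosyltransferases (UGT) and the sulfotransferases (SULT). They were chosen by gene symbol in the platform annotation, from probe sets that name a single gene, with each gene represented by its probe set of highest mean over the 6 arrays. This gave 47 genes of 18194, namely 20 GST, 3 MGST, 11 UGT and 13 SULT genes. Of the 47, 27 lay above log2 4 on at least 3 arrays and were tested, against 10488 genes tested in all. All 27 were above log2 4 on 5 arrays or more, so none passed this filter through 1 genotype alone.

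Expression was measured with Affymetrix mouse arrays in tissue labelled as whole colon, with 1 array per mouse. The 3 deficient mice were C57BL/6 animals with a floxed Pparg gene on both alleles and a Cre recombinase targeted to the lysozyme M promoter (PPAR g fl/fl; Lysozyme M cre+), which is active mainly in macrophages and neutrophils. The 3 control mice were littermates with the same floxed alleles and no Cre (PPAR g fl/fl; Lysozyme M cre-). Pparg encodes PPAR gamma, a nuclear receptor for fatty acid ligands. All mice were 6 to 8 weeks old, drank 2.5% dextran sodium sulfate (DSS), which injures the colonic epithelium, and were sampled on day 7, so no array shows bowel without DSS. The Cre was present in the deficient mice only, and an effect of Cre cannot be told apart from one of PPAR gamma loss.

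Conjugation makes lipophilic compounds soluble and ready for export. GST enzymes join the thiol of glutathione to electrophiles such as products of lipid peroxidation, UGT enzymes of the endoplasmic reticulum transfer glucuronic acid from UDP-glucuronic acid to bilirubin, steroids, bile acids and drugs, and soluble SULT enzymes transfer sulfate to phenols, catecholamines and sterols. In the gut these genes are expressed chiefly by epithelial cells, whereas the Cre of the deficient mice is driven by a myeloid promoter. Many of them lie in clusters of related neighbours, and their transcription in epithelium is known to draw on HNF1, HNF4 and CDX2, and on stimulus-driven receptors and NRF2.

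The promoters of the 4 measured Ugt2b genes are shown because the UGT family had the largest median difference between genotypes, and these genes lie in 1 cluster on chromosome 5. Each sequence is the RefSeq promoter in build GRCm38.p6, 250 bases before to 50 bases after the start of the gene, and a promoter was found for 42 of the 47 genes. The windows are chr5:86906888-86907187 (minus strand), chr5:87000610-87000909 (plus strand), chr5:87092506-87092805 (minus strand) and chr5:87140291-87140590 (minus strand). Capitals mark an HNF1-like motif, which is GTTA and TTAAC with any 4 bases between, and in Ugt2b35 also a DR1-like motif, TGACCTNTG, which resembles the direct repeat bound by PPAR and HNF4 receptors and is read here on the opposite strand.
Ugt2b34: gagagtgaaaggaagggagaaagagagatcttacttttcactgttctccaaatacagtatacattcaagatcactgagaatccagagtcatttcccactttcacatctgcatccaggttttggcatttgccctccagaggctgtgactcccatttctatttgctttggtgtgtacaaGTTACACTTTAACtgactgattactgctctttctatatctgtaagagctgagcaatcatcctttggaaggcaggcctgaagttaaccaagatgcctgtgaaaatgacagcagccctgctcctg
Ugt2b35: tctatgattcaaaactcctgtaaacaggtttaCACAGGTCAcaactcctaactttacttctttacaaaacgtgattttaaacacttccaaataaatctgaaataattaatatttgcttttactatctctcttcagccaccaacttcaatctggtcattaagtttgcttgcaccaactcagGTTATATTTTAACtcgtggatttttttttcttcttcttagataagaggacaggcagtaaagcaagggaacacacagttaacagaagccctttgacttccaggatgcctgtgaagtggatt
Ugt2b36: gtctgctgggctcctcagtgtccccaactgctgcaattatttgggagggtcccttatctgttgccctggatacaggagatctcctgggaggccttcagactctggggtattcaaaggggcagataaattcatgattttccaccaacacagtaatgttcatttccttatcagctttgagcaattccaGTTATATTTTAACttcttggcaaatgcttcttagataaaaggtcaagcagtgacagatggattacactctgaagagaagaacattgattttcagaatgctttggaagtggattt
Ugt2b5: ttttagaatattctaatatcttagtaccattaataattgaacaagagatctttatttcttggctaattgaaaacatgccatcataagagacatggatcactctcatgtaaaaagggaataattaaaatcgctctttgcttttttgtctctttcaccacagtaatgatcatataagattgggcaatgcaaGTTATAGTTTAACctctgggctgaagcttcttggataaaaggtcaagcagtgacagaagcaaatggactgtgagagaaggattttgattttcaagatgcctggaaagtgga
The HNF1-like motif began 73, 70, 64 and 61 bases before the start of Ugt2b34, Ugt2b35, Ugt2b36 and Ugt2b5, so it sat at nearly the same place in each. It was in 8 of the 42 promoters (19%), and in 0.189% of all 32851 mouse promoters of this length. These 8 were the promoters of Ugt3a1 and of all 7 Ugt2b members that had one. Ugt3a1 and 3 of the Ugt2b members (Ugt2b1, Ugt2b37 and Ugt2b38) were never above log2 4. The letters of the motif were chosen after the 4 sequences printed above had been read. Over whole pairwise alignments, gaps included, identity ran from 46.3% for Ugt2b34 and Ugt2b5 to 61.4% for Ugt2b36 and Ugt2b5.

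Further motifs were looked for on both strands in the same windows. The core of the antioxidant response element, TGACNNNGC, to which NRF2 binds, was in 4 of 42 promoters (Gsta3, Gstm5, Gstm7 and Mgst1), a share of 9.52% against 12.4% of all promoters. The DR1-like motif was in the promoters of Gstm1 and Ugt2b35, against 1.61% of all promoters. The full PPAR response element consensus, AGGTCA repeated with any 1 base between, was in none of the 42, and in 0.0396% of all promoters. The promoter of Gsta3, the GST gene with the smallest p-value between genotypes, is at chr1:21240335-21240634 on the plus strand, with its antioxidant motif in capitals. A match describes letters and not a bound site.
Gsta3: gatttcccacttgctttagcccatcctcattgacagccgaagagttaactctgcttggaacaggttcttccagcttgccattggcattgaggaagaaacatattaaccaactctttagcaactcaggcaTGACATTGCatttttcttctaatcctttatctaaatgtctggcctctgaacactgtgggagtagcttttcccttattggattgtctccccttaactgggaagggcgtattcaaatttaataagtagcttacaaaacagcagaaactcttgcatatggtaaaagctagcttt

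The arrays differed in genes of bowel segment. Deficient replicate 3 and control replicate 1 carried genes of the small intestine: Apoa1, an apolipoprotein of absorptive enterocytes, read 15.23 and 15.46 on them, against 3.82 to 7.38 on the other 4 arrays. Car1, a carbonic anhydrase of colonocytes, read 7.02 and 2.83 on them, against 13.60 to 15.32. The mean of 10 colon markers was 5.26 and 4.52 on them, against 7.40 to 8.51. Not every colon marker followed: Car4 was highest on deficient replicate 3, at 13.37. Slc26a3 read 11.05 on control replicate 1, against 10.78 and 10.34 on control replicates 2 and 3. Each genotype held 1 array with small intestine genes, and the counts, and the main genes, are therefore also given over the other 4 arrays and between these 2. The 4 arrays were not alike in colon markers either, and these did not all run in 1 direction. Hoxd10, a posterior Hox gene, read 3.91 and 2.29 on deficient replicates 1 and 2, against 6.59 and 6.51 on control replicates 2 and 3. Hoxb13, a gene of the most distal gut, read 3.76 and 7.30 against a floor value on both controls. Hoxa10 read 8.92 and 8.88 against 7.23 and 7.07, and Hoxa9 9.76 and 9.24 against 5.52 and 8.69. Hoxa11, Aqp8, Car4 and Slc26a3 were also higher on both deficient arrays, and Car1, like Hoxd10, was lower on both. Which genotype was sampled more distally is thus not settled by these markers. The part of position along the colon in the results that follow was not tested.

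**Figure D1:**
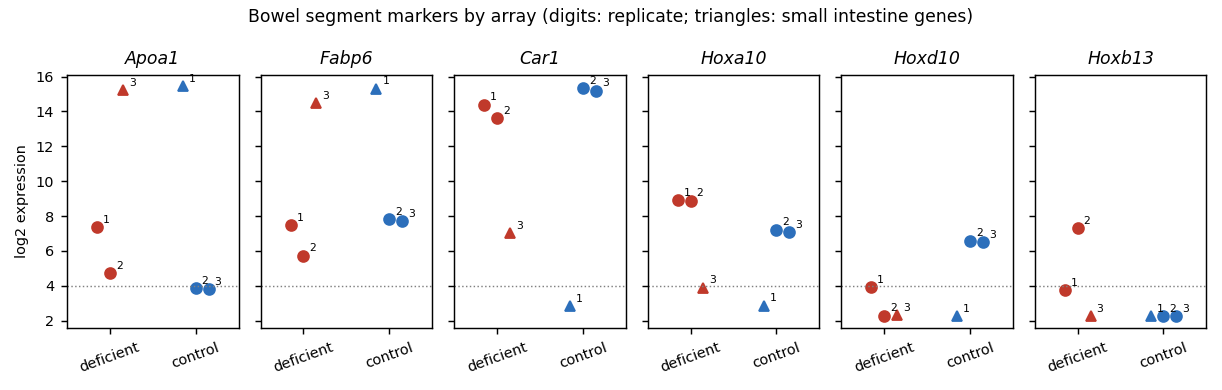
Log2 expression (vertical axes) of 2 small intestine genes, a colonocyte gene and 3 posterior Hox genes in deficient (left in each panel) and control arrays, with replicate numbers beside the points and a dotted line at log2 4. Deficient replicate 3 and control replicate 1 (triangles) stand apart for Apoa1, Fabp6 and Car1, and Hoxb13 is highest on deficient replicate 2 at 7.30.

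Marker lists described what else differed between the arrays. The mean of 10 epithelial markers, among them Epcam and Krt8, was 13.37, 13.26 and 13.52 on deficient replicates 1 to 3, against 13.76, 13.32 and 13.26 on control replicates 1 to 3. This mean was close on all arrays, but single markers varied more, Vil1 from 10.95 to 13.49 and Krt20 from 12.70 to 14.27. Means of 12 macrophage and monocyte markers were 8.85, 9.64 and 8.13 in deficient mice, against 7.37, 7.69 and 8.09 in controls. Means of 5 neutrophil markers were 6.65, 8.14 and 4.84 in deficient mice, against 3.28, 3.41 and 5.22 in controls. Means of 4 adipocyte markers were 7.04, 6.85 and 7.64 in deficient mice, against 8.15, 9.002 and 8.14 in controls, lower on every deficient array. Means of 7 smooth muscle markers were 12.01, 11.94 and 11.17 in deficient mice, against 10.81, 12.10 and 12.10 in controls. Those of 7 goblet cell markers were 13.48, 13.54 and 12.92, against 13.16, 13.66 and 13.63. Both were lowest on the 2 arrays with small intestine genes. Deficient replicate 2, on which many of the enzymes were lowest, also stood apart in other cell types. Its mean of 6 fibroblast markers was 12.40, against 10.28 to 11.56 on the other arrays, and its level of Jchain, a plasma cell gene, was 8.25, against 10.13 to 13.49. Some enterocyte genes, named after their values were seen, were also lowest on this array. Mep1a read 7.24, against 10.16 to 12.24 on the others, and Alpi 4.80, against 8.59 to 12.26. Fabp2 read 10.65, against 12.19 to 15.02, and Slc10a2 4.21, against 7.53 to 11.61. Apoa1 did not follow, at 4.72 against 3.85 and 3.82 on control replicates 2 and 3. The part of these cells and genes in the results was not tested. Of 5 liver markers 3 were measured, with Ttr at 5.43 to 7.45, Cyp2e1 at 6.38 to 10.07 and Cps1 at 11.77 and 11.93 on the 2 arrays with small intestine genes, while Alb was under log2 4 on all arrays. Of 5 pancreas markers 4 were never above log2 4. Pparg read 8.77, 8.23 and 4.15 on the deficient arrays, against 5.28, 9.91 and 9.54 on the control arrays (limma adjusted p = 0.881), and since epithelium without Cre expresses it this does not check the deletion. Xist, which marks female cells, read 12.11 on control replicate 2 and was at the floor on the other arrays. The groups were thus not matched for sex, and the part of sex in the results was not tested. In whole tissue, fewer cells of a type and less RNA per cell cannot be told apart.

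The first comparison asked how the conjugating enzymes of the inflamed bowel differed when PPAR gamma was lost in myeloid cells. Differences were mostly towards lower levels in deficient bowel, and none passed the test. Of the 27 measured genes, 23 had a difference below 0, deficient minus control, against 42.9% of all genes tested, and the median log2 difference was -0.68, against 0.06 over all genes. With limma and Benjamini-Hochberg adjustment over all genes, 0 of 27 had an adjusted p under 0.05, as had 0 of all 10488 genes (0%), and adjusted p-values of the 27 ran from 0.658 to 0.997. At an unadjusted p under 0.05 there were 3, all lower in deficient bowel (11.1%, against 2.36% of all genes that were lower and 5.07% that were higher). The deficient arrays lay wholly below the control arrays for 6 of the 27 genes (22.2%, against 4.15% of all genes) and wholly above them for 1 (3.7%, against 9.35%).

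**Figure D2:**
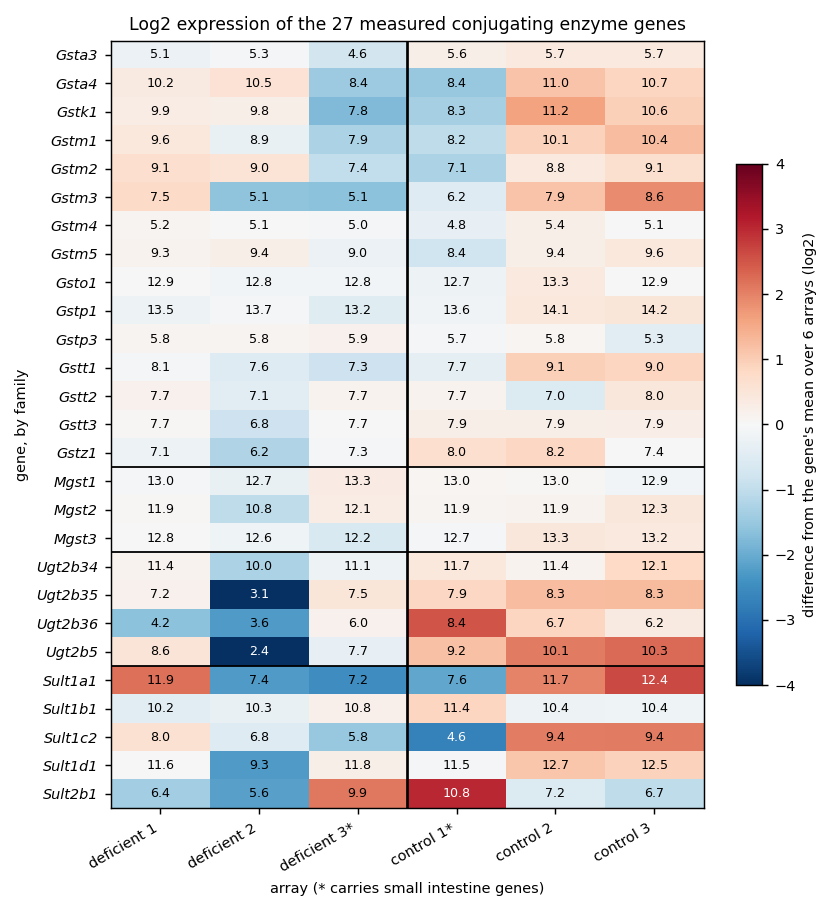
Log2 expression of the 27 measured genes (rows, in order GST, MGST, UGT and SULT) on the deficient and control arrays (columns), with the value in each cell and the colour giving the difference from the gene's mean over 6 arrays. Ugt2b5 and Ugt2b35 are lowest on deficient replicate 2, at 2.38 and 3.09, and Sult2b1 is highest on the 2 arrays with small intestine genes, at 9.86 and 10.76.

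The lower levels were most uniform among the 4 arrays without small intestine genes, which include control replicate 2, the only array with Xist above the floor. There, 25 of the 27 genes had a difference below 0 (41.6% of all genes did), with a median of -0.78. Both deficient arrays lay below both control arrays for 19 genes (70.4%, against 18.4% of all genes) and above them for 1, Gstp3 (3.7%, against 30.5%). Deficient replicate 2 was the lowest of the 4 for 19 genes (70.4%, against 27.1%), and deficient replicate 1 on its own lay below both controls for 20 (74.1%, against 27.5%). In the pair of small intestine arrays, the deficient one was lower for 17 of 27 genes (63%, against 47.9% of all genes), with a median of -0.34. In a limma fit with these 2 arrays as a block, 10 of the 27 had an unadjusted p under 0.05, all lower in deficient bowel (37%, against 5.33% of all genes that were lower and 8.11% that were higher), and the smallest adjusted p among the 27 was 0.196, with 0 of all genes under 0.05.

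**Figure D3:**
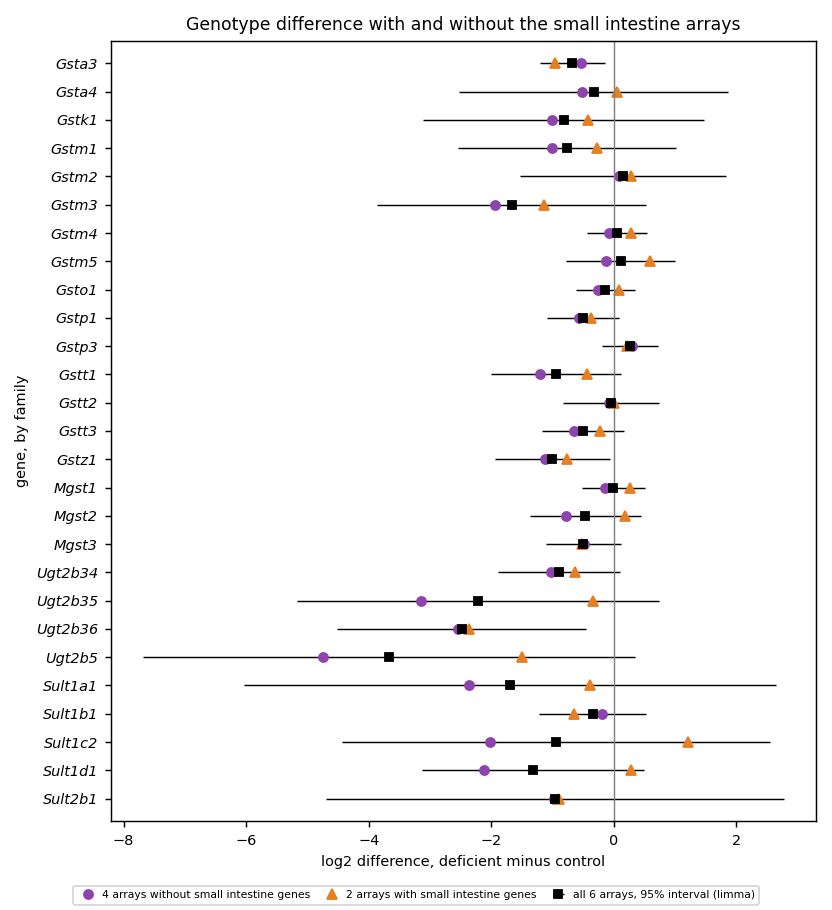
Log2 difference, deficient minus control, of each measured gene (vertical axis), over all 6 arrays with the 95% interval from limma (black squares), over the 4 arrays without small intestine genes (purple circles) and between the 2 arrays with them (orange triangles). Ugt2b36 gives nearly the same value in all 3, at -2.48, -2.55 and -2.36, whereas Sult1c2 gives -2.02 over the 4 arrays and 1.21 between the 2.

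Ugt2b5, Ugt2b36 and Ugt2b35 had the largest differences of the 27 genes. All 4 measured members had lower means in deficient bowel and their lowest value on deficient replicate 2, with a median difference of -2.35, and none passed the test. The median was -1.26 without deficient replicate 2. Ugt2b5 (1419622_at), an enzyme of steroid and drug glucuronidation in rodents, read 8.56, 2.38 and 7.72 on deficient replicates 1 to 3, against 9.22, 10.13 and 10.31 on control replicates 1 to 3. Every deficient array was below every control array, and deficient replicate 2 was near the floor of the arrays. Its means were 6.22 ± 3.35 in deficient and 9.89 ± 0.59 in control mice (SD, n = 3 each), a log2 difference of -3.67 (standard error 1.63, limma adjusted p = 0.684), or a 12.7-fold lower level. The difference rested much on that array: it was -1.75 without deficient replicate 2, and -3.13 with values under log2 4 set to 4. Over the 4 arrays without small intestine genes it was -4.75, and between the 2 with them -1.50.

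Ugt2b35 (1439624_at) had the same low array, at 7.23, 3.09 and 7.55 on the deficient arrays, against 7.89, 8.29 and 8.34 on the control arrays. The groups did not overlap, and deficient replicate 2 was again far below the other deficient arrays. The difference was -2.21 (standard error 1.20, limma adjusted p = 0.714), and it was -0.78 without deficient replicate 2. By segment it was -3.15 over the 4 arrays and -0.34 between the 2. Ugt2b36 (1455595_at) was the most even, at 4.19, 3.57 and 6.00 on the deficient arrays, against 8.36, 6.68 and 6.18 on the control arrays. Deficient replicate 2 was under log2 4 here, and deficient replicate 1 was just above it. On each genotype the highest array of Ugt2b36 was the one with small intestine genes. Its difference was -2.48 (standard error 0.83, limma adjusted p = 0.658). In the fit with the small intestine arrays as a block the interval of the same difference was -3.10 to -1.87 and the adjusted p was 0.196, the smallest among the 27 genes. With values under log2 4 set to 4 the difference of Ugt2b36 was -2.34.

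Ugt2b34 (1427961_s_at) differed less than its neighbours, at 11.42, 10.01 and 11.06 on the deficient arrays, against 11.69, 11.41 and 12.07 on the control arrays. The groups overlapped only in deficient replicate 1 and control replicate 2. The difference was -0.89 (standard error 0.41, limma adjusted p = 0.686), and a further probe set of the gene (1427960_at) gave -1.03 with non-overlapping groups. Without deficient replicate 2 the difference was -0.48. All 4 of these genes carry the HNF1-like motif printed above, as do members that were not measured above log2 4. Probes of Ugt2b genes can bind transcripts of near-identical neighbours, so single values within this cluster are uncertain in which gene they read.

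**Figure D4:**
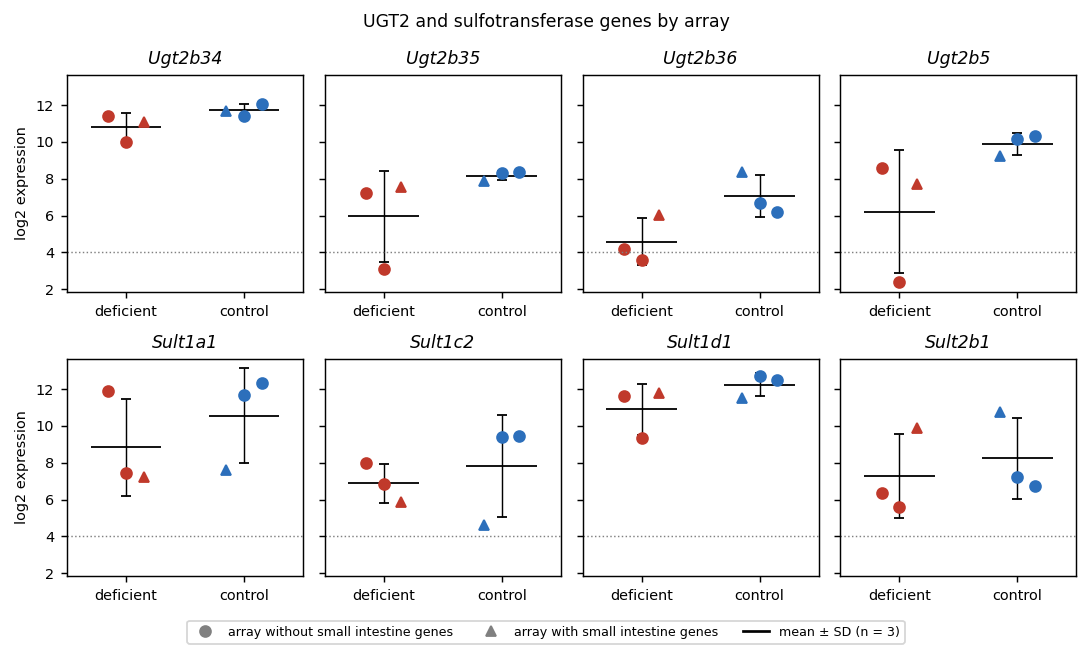
Log2 expression of the 4 measured UGT2 genes and of 4 sulfotransferase genes in deficient (left, red) and control (right, blue) arrays, with bars at the mean ± SD (n = 3) and triangles for the arrays with small intestine genes. Deficient replicate 2 is lowest for Ugt2b5, Ugt2b35 and Sult1d1, while Sult2b1 is highest on the small intestine arrays, at 9.86 and 10.76.

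The UGT1 locus, whose products include the bilirubin-conjugating enzyme, could not be assigned to single genes. Its first exons are spliced to shared downstream exons, and 3 probe sets name 8 of its genes together, so they stand outside the 47. The brightest of them (1426260_a_at) read 13.29, 11.90 and 12.08 on the deficient arrays, against 12.74, 13.98 and 14.04 on the control arrays. The groups overlapped, with the control array that carried small intestine genes below deficient replicate 1. The 3 probe sets gave log2 differences of -1.16, -1.31 and -1.31, and limma adjusted p-values over 18977 probe sets of 0.726 to 0.755. One more probe set, naming Gsta1, Gsta2 and Gm3776, read 8.66, 6.96 and 8.51 against 8.82, 8.42 and 9.14, and was lowest on deficient replicate 2 as well.

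All 5 measured sulfotransferase genes had a difference below 0, with a median of -0.96, and the groups overlapped for each. The median was -0.53 without deficient replicate 2, -1.48 without deficient replicate 1 and -1.67 without control replicate 1. Sult1d1 (1448973_at), which sulfates catecholamines in the mouse, read 11.60, 9.32 and 11.81 on the deficient arrays, against 11.53, 12.68 and 12.49 on the control arrays. It was lowest on deficient replicate 2, and the remaining deficient arrays were near control replicate 1. The difference was -1.32 (standard error 0.74, limma adjusted p = 0.718), -2.12 over the 4 arrays without small intestine genes and 0.28 between the 2 with them. It was -0.53 without deficient replicate 2. A further probe set (1418138_at) gave -1.90, with 6.58 on deficient replicate 2. Its neighbour Sult1b1, which sulfates thyroid hormone, read 10.16, 10.26 and 10.78 against 11.44, 10.38 and 10.42, a difference of only -0.34 (limma adjusted p = 0.828).

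Sult1a1 (1427345_a_at), the main phenol sulfotransferase, took either a high or a low level. It read 11.89, 7.43 and 7.23 on the deficient arrays, against 7.61, 11.69 and 12.35 on the control arrays. Both arrays with small intestine genes were low, as was deficient replicate 2, and the others were high. Its difference was -1.70 (standard error 1.76, limma adjusted p = 0.831). Sult1c2 was at 7.96, 6.84 and 5.84, against 4.64, 9.41 and 9.43, lowest on both arrays with small intestine genes. The difference was -2.02 over the 4 other arrays and 1.21 between the 2, with deficient higher, so the sign was not the same in both segments, which was not tested. Sult2b1 (1417335_at), a cholesterol and pregnenolone sulfotransferase, was the opposite case, at 6.38, 5.59 and 9.86 on the deficient arrays, against 10.76, 7.20 and 6.74 on the control arrays. It was 2.66 or more above all other arrays on the 2 with small intestine genes, a gap of 2 or more that 0.753% of all genes had in that direction and 0.553% in the other. Within segments the deficient arrays were lower, by a log2 difference of -0.99 over the 4 arrays and -0.90 between the 2, and the difference over all arrays was -0.96 (limma adjusted p = 0.892).

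Of 15 soluble GST genes measured, 11 had a difference below 0 (against 42.9% of all genes), with a median of -0.50. The median was -0.14 without deficient replicate 3 and -0.33 without control replicate 2. The groups were separate for 3 lower and 1 higher, against 4.15% and 9.35% of all genes. Gsta3 (1423436_at), an alpha class enzyme, read 5.11, 5.26 and 4.61 on the deficient arrays, against 5.57, 5.72 and 5.72 on the control arrays. The groups did not overlap, and the control arrays were close together. The difference was -0.68 (standard error 0.21, limma adjusted p = 0.658), and its unadjusted p was the smallest among the 27. It was -0.54 over the 4 arrays without small intestine genes and -0.96 between the 2 with them. Gstz1 (1427552_a_at), the maleylacetoacetate isomerase of tyrosine breakdown, read 7.15, 6.16 and 7.27 against 8.03, 8.18 and 7.38. Its groups were separate as well, and the difference was -1.003 (standard error 0.38, limma adjusted p = 0.666), or -0.65 without deficient replicate 2.

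Gstp1 (1449575_a_at), the pi class enzyme of epithelia, read 13.51, 13.68 and 13.23 on the deficient arrays, against 13.60, 14.14 and 14.21 on the control arrays. Only control replicate 1, with small intestine genes, lay in the deficient range, and the difference was -0.51 (standard error 0.24, limma adjusted p = 0.686). Gstt1, of the theta class, differed by -0.95, at 8.05, 7.58 and 7.27 against 7.71, 9.06 and 8.97. Gstt3 differed by -0.50, at 7.69, 6.83 and 7.68 against 7.90, 7.89 and 7.91, with deficient replicate 2 lowest. Gstp3 was the single gene with all deficient arrays above all control arrays, at 5.81, 5.83 and 5.89 against 5.67, 5.78 and 5.28, a difference of 0.27 (limma adjusted p = 0.756). Gsto1, an omega class enzyme that reduces dehydroascorbate, read 12.91, 12.80 and 12.80 against 12.72, 13.30 and 12.91, with a difference of -0.14 and an interval of -0.63 to 0.35.

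Several GST genes were lowest on both arrays with small intestine genes. Gsta4 (1416368_at), which clears hydroxynonenal from lipid peroxidation, read 10.24, 10.45 and 8.41 on the deficient arrays, against 8.36, 11.01 and 10.74 on the control arrays. Those 2 arrays were at least 1.83 below the rest. Gstk1 (1452823_at), the kappa class enzyme of mitochondria and peroxisomes, was at least 1.54 below the rest on them, at 9.91, 9.82 and 7.85 against 8.27, 11.20 and 10.55. Over the 4 other arrays the deficient ones were lower for both, by differences of -0.53 for Gsta4 and -1.01 for Gstk1, against 0.06 and -0.43 between the 2. Among neighbours in the mu class cluster, Gstm1, Gstm2, Gstm4 and Gstm5 were also lowest on these 2 arrays. With Sult1c2 this made 7 of 27 genes lowest there (25.9%, against 21.0% of all genes) and 3 highest there, Mgst1, Sult1b1 and Sult2b1 (11.1%, against 13.9%), shares near those of all genes.

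The mu class genes differed among themselves between genotypes. Gstm3 (1427474_s_at) read 7.52, 5.15 and 5.11 on the deficient arrays, against 6.25, 7.89 and 8.64 on the control arrays, a difference of -1.67 (standard error 0.89, limma adjusted p = 0.714). In both segments its deficient arrays were lower, by -1.94 over the 4 arrays and -1.13 between the 2. Gstm1 differed by -0.76, and by -0.83 on a further probe set (1448330_at). Gstm2, Gstm4 and Gstm5 differed by 0.15, 0.05 and 0.11, each with an interval that included 0. Mu class transcripts are near-identical in parts, and the probe sets of Gstm1 and Gstm3 carry suffixes for cross-hybridisation, so the signal of 1 gene can include another.

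The 3 membrane-bound MGST genes were above log2 4 on every array, and their groups overlapped. Mgst1 (1415897_a_at), which protects membranes of the endoplasmic reticulum and mitochondria from oxidation, read 12.95, 12.68 and 13.31 on the deficient arrays, against 13.05, 13.04 and 12.89 on the control arrays. The difference was -0.01 with an interval of -0.52 to 0.50 (limma adjusted p = 0.997). Mgst2, which can also make leukotriene C, read 11.85, 10.78 and 12.09 against 11.92, 11.94 and 12.26, with a difference of -0.46 that was -0.067 without deficient replicate 2, its lowest array. Mgst3 read 12.83, 12.64 and 12.21 against 12.72, 13.27 and 13.19, with a difference of -0.50 (limma adjusted p = 0.699) that was -0.49 over the 4 arrays without small intestine genes and -0.51 between the 2 with them.

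The other 20 genes were not measured well enough for a test. Of these, 16 were never above log2 4, among them Sult1e1, the estrogen sulfotransferase, Gsto2, Ugt3a2 and 3 Ugt2b genes, and 4 were above it on 1 or 2 arrays. Ugt8a (1419063_at), which makes galactosylceramide and not a glucuronide, read 3.20, 2.45 and 2.61 on the deficient arrays, against 2.63, 7.14 and 7.38 on the control arrays. Its level was high on control replicates 2 and 3 alone, the same 2 arrays that were high for Hoxd10. Ugt2a3 was above log2 4 on control replicate 1 alone, at 4.87, Gsta2 on control replicate 3 at 4.46 and Sult5a1 on control replicate 2 at 4.04. A gene under the floor may be expressed at levels these arrays do not resolve.

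Genes that supply the conjugating enzymes were set beside them, and no gene of these lists passed the test. Among 7 tested genes of UDP-glucuronic acid supply and removal, 1 had an unadjusted p under 0.05 (again against 5.07% of all genes that were higher): Gusb, the lysosomal glucuronidase that removes glucuronic acid, read 8.96, 9.67 and 8.46 on the deficient arrays, against 7.69, 8.28 and 8.32 on the control arrays, a difference of 0.94 (limma adjusted p = 0.666). Ugdh, which makes the UDP-glucuronic acid itself, is named after its values were seen. It read 11.89, 10.78 and 10.60 against 10.96, 13.29 and 13.26, a difference of -1.41 (limma adjusted p = 0.709), and control replicates 2 and 3 stood highest, as on the shared UGT1 probe sets. Among 9 genes of sulfate donor supply none had an unadjusted p under 0.05. A difference below 0 was seen for 7 of the 9 (against 42.9% of all genes), with a median over the 9 of only -0.11. The smallest p belonged to Papss1, a synthase of the sulfate donor, at 10.26, 9.43 and 10.25 against 10.86, 10.38 and 10.85.

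Glutathione genes ran in both directions. Of 19 tested genes of glutathione synthesis, recycling and peroxidases, 1 was higher and 3 lower at an unadjusted p under 0.05 (against 5.07% and 2.36% of all genes), with a median difference of 0.24 in contrast to -0.50 for the soluble GST genes, a contrast that was not tested. Gpx2, the glutathione peroxidase of gut epithelium, read 13.66, 13.92 and 14.43 on the deficient arrays, against 13.08, 12.04 and 12.32 on the control arrays, a difference of 1.52 (limma adjusted p = 0.658). All deficient arrays were above all control arrays, and the difference was 1.61 over the 4 arrays without small intestine genes and 1.34 between the 2 with them. Gclm, the modifier subunit of the enzyme that starts glutathione synthesis, read 9.70, 9.71 and 9.29 against 10.06, 10.16 and 10.35, and Oplah, a recycling enzyme, differed by -1.04. Of 18 tested genes of the NRF2 pathway, 2 were higher and 1 lower at that p, against the same 5.07% and 2.36%. The lower 1 was Gclm, which with Gclc and Txnrd1 was in both lists. Maff, a small Maf partner of NRF2, differed by 1.43 and Pgd, of the pentose phosphate pathway, by 0.41.

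Of 6 tested export genes, 4 had a difference below 0 (against 42.9% of all genes) and 1 was lower at an unadjusted p under 0.05 (against 2.36%): Abcb1a, the P-glycoprotein drug pump, read 10.70, 9.41 and 9.12 on the deficient arrays, against 10.68, 11.80 and 11.82 on the control arrays, a difference of -1.69 (limma adjusted p = 0.658). Of 15 tested regulators 12 had a difference below 0 (against 42.9% of all genes), with a median of -0.42, and 1 was lower at an unadjusted p under 0.05 (against 2.36%). This was Ppara, the receptor of fatty acid oxidation, at 6.82, 4.82 and 6.70 on the deficient arrays, against 7.97, 8.27 and 7.999 on the control arrays, with separate groups and a difference of -1.96 (limma adjusted p = 0.658). Ppara was lowest on deficient replicate 2, as were 10 of the 15 regulators and 10 of the 27 conjugating enzymes among all 6 arrays (18.3% of all genes were).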

How the data were processed

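Per the submitters' processing notes, the authors used GCRMA, which models background from probe sequence and gives 1 log2 value for each probe set on each array. Which version and settings were used is not stated there. The scale was read from the deposited log2 values, which reached 16.16 with array medians of 3.02 to 3.10, and unbound probe sets share a floor, so differences near it are compressed. No further normalization was applied. The 3 arrays per genotype limit the precision.

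Of 45101 probe sets, 34958 named 1 gene in the platform annotation, 932 several and 9211 none. Genes were represented by the probe set of highest mean, kept when above log2 4 on at least 3 arrays, and fitted by lmFit and eBayes (limma 3.58.1, R 4.3.3, two-sided tests), deficient minus control, with Benjamini-Hochberg adjustment over 10488 genes and a threshold of 0.05. The procedure was tested on simulated data. An array counted as carrying small intestine genes when the mean of 13 such markers was above that of 10 colon markers. Promoters were aligned with Biopython 1.88, and figures drawn with matplotlib 3.10.9. The genes, lists and rules were chosen with earlier results of these data known. Array values were given for the brightest 4 genes of each family, for genes with an unadjusted p under 0.05 or separate groups and a log2 difference of at least 1, for genes with a segment gap of at least 2, and for some chosen after their values were seen (Gstm3, Gstp3, Gstt1, Gstt3, Sult1c2, Ugdh, Ugt8a and the probe sets naming several genes); of each related list, genes with an unadjusted p under 0.05 (at most 3), or else the 1 with the smallest p, were named. Alternatives changed 1 choice at a time, and the fit of every probe set on its own was added after the data were examined. Replicate numbers are shared by the genotypes in the labels, but nothing in the labels pairs the mice.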

Additional observations from a re-analysis of the deposited data

How the results depend on the processing

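No gene, of the 27 or of all genes tested, had a limma adjusted p under 0.05 in any of 17 alternative settings. The median difference of the measured conjugating enzymes stayed below 0 in all of them, at -0.33 with no filter, where 47 genes enter, -0.76 with median centring and -0.78 over the 4 arrays lacking small intestine genes. The count of these genes with an unadjusted p under 0.05, which was 3, became 6 with median centring, 10 with bowel segment as a block, 7 without the small intestine arrays, and between 1 and 7 in fits without 1 array (1 without control replicate 2, 7 without control replicate 1). The cause was not tested. With the replicate number as a block it was 2, with 0 genes past the threshold. Deviations of same-numbered arrays correlated at -0.54, 0.36 and -0.61. The highest value, 0.69, was between deficient replicate 3 and control replicate 1, the 2 arrays with small intestine genes. Because these values follow the small intestine genes, they cannot show whether the numbers pair the mice. For 17 named genes 288 values were recomputed, and 278 kept their direction and none passed the threshold. The 10 that turned came from fits without 1 array, in which Gsta4 ran from -1.17 to 0.31, Gsto1 from -0.27 to 0.021, Mgst1 from -0.17 to 0.14, Sult1b1 from -0.54 to 0.0015 and Sult2b1 from -2.25 to 0.31. Without deficient replicate 2 the differences of Ugt2b5 and Ugt2b35 shrank to -1.75 and -0.78, while Ugt2b36 stood at -1.98. In fits without 1 array Gstk1 ran from -1.68 to -0.14 and Sult1a1 from -3.22 to -0.80. Genes near the floor, such as Ugt2b5 on that array, are limited by signal over background.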
